A study of Danio rerio with 50 samples.

Results

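The genes described here were 9 genes of the unfolded protein response in zebrafish olfactory sensory neurons (OSNs): eif2ak3, atf5a, atf5b, atf6, hspa5, xbp1, ddit3, manf and creb3l1. They were taken by name and all 9 of 9 were found among the 29033 genes of both count tables. The tables held 47 single cells and 3 bulk libraries. The single cells were sorted by flow cytometry from embryos of the strain Tu/TLF at 48 hours post fertilization, in which the zebrafish OMP promoter drove RFP, and each was captured on a Fluidigm C1 chip and amplified with the SMARTer kit. OMP (olfactory marker protein) is a gene of mature OSNs, and every cell carried the transgene. The labels call the bulk libraries OMP positive bulk cells, and by the methods of the study they were cells pooled from embryos that also carried or111-7:IRES:GAL4 and UAS:Citrine. Cells were told apart in the labels by the added control RNA, ERCC in 33 and Fluidigm in 14, and these 2 sets were taken as the separate runs of the experiment.

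The labels give no class, so cells were classed by their own counts with a rule that used none of the 9 genes. The 5 immature cells had at least 20 CPM (the read count of a gene scaled to a fixed total per cell) of gng8 plus gap43, genes of young OSNs. The 13 OR-negative cells were not immature and had no odorant receptor (OR) gene at 10 CPM or more. The 29 OR-expressing cells had one, and the clade of their most abundant OR placed them in clade C (10 cells), clade A (9 cells) or clade B (10 cells). Total counts ranged from 6951519 to 30192554 per cell with a median of 18164798. No 2 cells had identical counts. Summed over 6 markers of mature ciliated OSNs, ompb, gng13b, gnal, cnga4, ano2 and adcy3b, 12 of 13 OR-negative cells and 28 of 29 OR-expressing cells reached 10 CPM. So did 4 of 5 immature cells, at up to 726 CPM, so this level does not tell mature from immature cells. The OR-negative and OR-expressing exceptions were Fluidigm cell 6, which was OR-negative with 1.62 CPM, and Fluidigm cell 4 of clade A with 2.76 CPM. Fluidigm cell 11 of clade B had 53.4 CPM, below the immature median of 138 CPM. It had the highest hspa5 (2549 CPM) and manf (98.7 CPM) of clade B and is included in all values. Values without Fluidigm cell 6 and Fluidigm cell 4 are given for some counts of eif2ak3, atf5a, hspa5, xbp1 and ddit3. All other values include both cells. The summed markers of epithelium (epcam, krt4, krt5, cdh1) reached 10 CPM in 5 of 5 immature, 12 of 13 OR-negative and 28 of 29 OR-expressing cells, and those of glia in 0, 0 and 1. Gene by gene, epcam was at 10 CPM or more in 41 of 47 cells and cdh1 in 30, but the keratin genes krt4 and krt5 in 5 and 0. In the same order of classes, markers of microvillous OSNs (trpc2b, gnaia) reached 10 CPM in 2, 2 and 3 cells. The crypt neuron gene s100z did so in 3, 4 and 10, while the other crypt gene, ora4, reached it in no cell. The GnRH neuron gene gnrh3 reached it in 2, 0 and 0 cells, immature ERCC cell 3 (2680 CPM) and ERCC cell 1 (239 CPM). Progenitor markers (neurod1, neurog1, ascl1a) reached it in 1, 0 and 1, with 218 CPM in immature Fluidigm cell 7. Whether these immature cells were young OSNs was not tested. The dissociation and stress genes fosab, jun, egr1, hsp70l and ier2 together had a median of 8260 CPM in immature cells, 4068 CPM in OR-negative cells and 5116 CPM in OR-expressing cells. Their part in the results was not tested.

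The unfolded protein response is started by sensors in the membrane of the endoplasmic reticulum (ER) when proteins fold poorly there. The kinase PERK, the product of eif2ak3, phosphorylates the translation factor eIF2alpha, which slows most protein synthesis while favouring messages such as those of ATF4 and ATF5. In mouse OSNs the first OR protein is known to engage PERK, and the ATF5 then made takes part in the feedback that stabilises the choice of that OR and lets the neuron mature. IRE1, which splices the message of XBP1, and ATF6, which is cleaved in the Golgi, are the other sensors. HSPA5 (BiP) is the main ER chaperone and holds the sensors inactive until it is drawn away by unfolded protein.

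Detection, set at 10 CPM, was reached for the PERK gene eif2ak3 in 13 of 47 cells. The median over the 7886 genes past the filter of the fit below was 6 cells, and 23.3% of them were found in as many cells as eif2ak3 or more. In the 13 OR-negative cells the level spanned 0 to 634 CPM (median 14.96 CPM), and 7 cells (53.8%, exact 95% interval 25.1 to 80.8%) were above the detection level. In the 29 OR-expressing cells it spanned 0 to 830 CPM (median 0.108 CPM), and 5 cells (17.2%, 5.85 to 35.8%) were above it. These intervals take cells as independent draws, cover counting error only and overlap. Of the 7886 genes, 39 (0.495%) had a difference in share at least as large as eif2ak3, a count added after the values were seen. It pooled the 2 spike-in sets, and eif2ak3 was detected in ERCC cells only. ERCC cells were 11 of the 13 OR-negative and 18 of the 29 OR-expressing cells, so set and class were not separated. Among the 5 immature cells only ERCC cell 31 had eif2ak3, at 772 CPM, and the others had 0.632, 0.0381, 0 and 0 CPM. Without Fluidigm cell 6 and Fluidigm cell 4 the counts were 7 of 12 OR-negative and 5 of 28 OR-expressing cells.

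**Figure D1:**
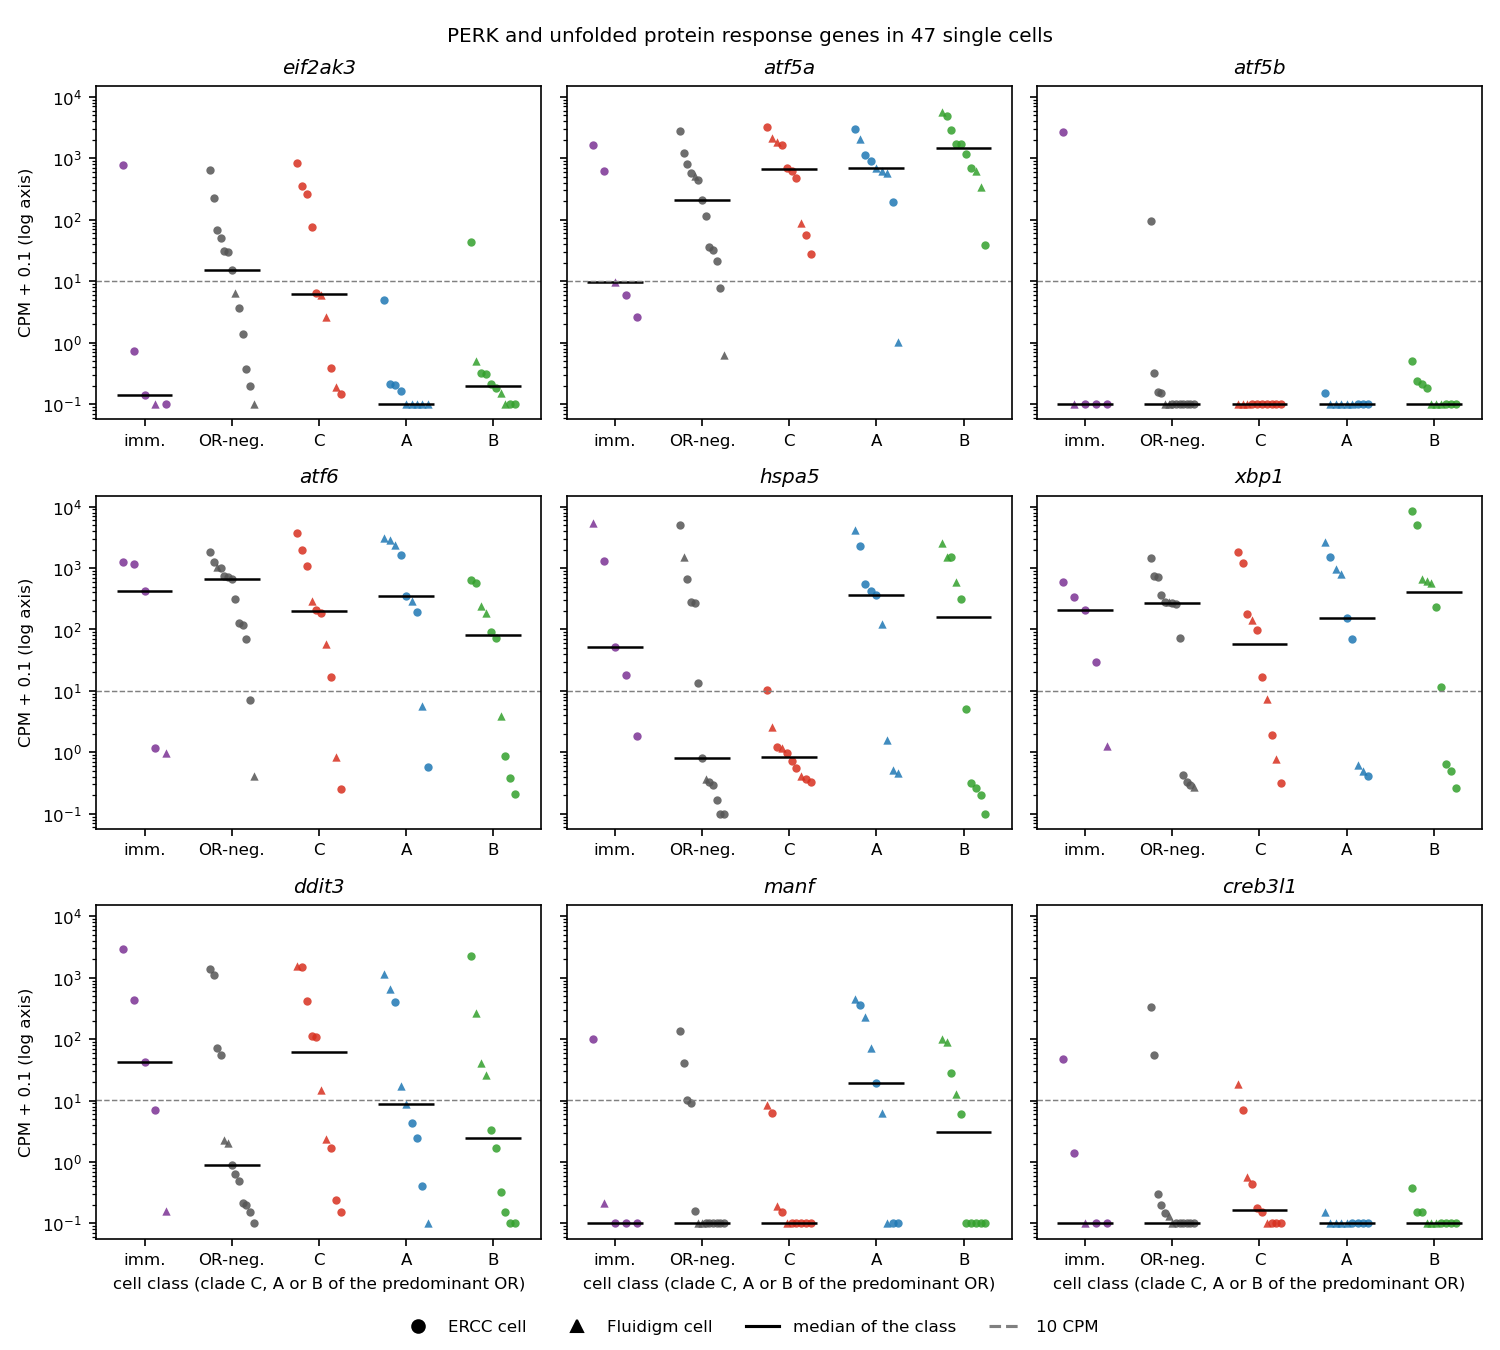
CPM plus 0.1 on a log axis of each gene in 47 single cells by class, where imm. is immature, OR-neg. is OR-negative, and C, A and B are the clades of the predominant OR. Circles are ERCC cells, triangles Fluidigm cells, black bars class medians and the dashed line is 10 CPM, which eif2ak3 passed in 7 of 13 OR-negative cells and hspa5 in 1 of 10 clade C cells.

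Of the 5 OR-expressing cells with eif2ak3, 4 were of clade C. The 4 clade C cells above 10 CPM had 830, 357, 261 and 75.7 CPM, and their predominant ORs were or136-1, or133-2, or133-2 and or129-1. The other 6 clade C cells had 0.0481 to 6.31 CPM. No clade A cell was above 10 CPM, and the highest had 4.76 CPM. Taken as independent draws, these 9 cells allow a share of up to 33.3%. In clade B 1 of 10 cells was above 10 CPM, with 43.7 CPM, and the next had 0.397 CPM. A pattern at least this strong, in 4 or more clade C cells and in 1 or fewer clade A and B cells, was shown by 28 of 5623 genes (0.498%). These cutoffs were the counts of eif2ak3 itself, so this share is a description and no test. The study names eif2ak3 among genes that set clade C apart, a choice made on these same cells, so the direction is not independent evidence.

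All cells with eif2ak3 belonged to the ERCC set. In the 33 ERCC cells 13 (39.4%) were above 10 CPM, and in the 14 Fluidigm cells none was. Taken as independent draws, these 14 cells allow a share of up to 21.4%. The highest Fluidigm cell had 6.20 CPM. Only 11 of 7886 genes (0.139%) were detected in as many ERCC cells and in no Fluidigm cell, while over all 7886 genes the median share of cells was 15.2% in ERCC and 14.3% in Fluidigm cells. This was seen after the values were known. At 10 CPM the contrast between clades therefore rested on ERCC cells alone, with 4 of 7 clade C cells against 1 of 11 cells of clades A and B. These are the same positive cells as above, so the ERCC set gives no separate check. At this level the contrast could not be seen in the Fluidigm set with 0 of 3 against 0 of 8. Below it, the Fluidigm medians were 2.53 CPM in clade C and 0 CPM in clades A and B. The highest such cells had 5.89 and 0.397 CPM. Among ERCC cells 7 of 11 OR-negative and 5 of 18 OR-expressing cells had eif2ak3 at 10 CPM or more. The bulk libraries, which by their labels carried ERCC, had eif2ak3 at 31.3, 112 and 96.8 CPM.

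For the test, raw counts were summed per class and spike-in set, so that each class had 2 sums, since cells are not replicates. Averaged over the cells of a sum, Fluidigm set before ERCC set, clade C had 2.84 and 219 CPM of eif2ak3. Clade A had 0 and 1.26 CPM, and clade B had 0.149 and 6.33 CPM. The log2 fold change of clade C over clades A and B was 6.32 with a standard error of 3.99 (edgeR quasi-likelihood test, unadjusted p = 0.113, adjusted p = 0.738 over 5623 genes). DESeq2 gave 6.13 with an adjusted p of 0.0622, and over the alternatives the adjusted p ran from 0.0622 to 1. Without the ERCC sum of clade C the fold change was 1.71. Across all 5623 genes edgeR called 1 (0.0178%) in each of the contrasts clade C, clade A and clade B over the other clades, and none of them was one of the 9 genes. Of the 9 genes, 7 were tested in these contrasts, and at an unadjusted p under 0.05 the only one was hspa5. Over all 5623 genes 310 (clade C), 284 (clade A) and 292 (clade B) were at that level in the same test.

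The chaperone hspa5 showed the opposite pattern. In clade C its highest level was 10.1 CPM and the median was 0.744 CPM, so that 1 of 10 cells only just reached the detection level, and the next cell had 2.50 CPM. In clade A it spanned 0.366 to 4192 CPM (median 361 CPM), with 6 of 9 cells detected. In clade B it spanned 0 to 2549 CPM (median 158 CPM), with 5 of 10 cells detected. Those 11 cells of clades A and B had 124 CPM or more, and the 8 others had 4.96 CPM or less, below the highest clade C cell. Of 5623 genes, 5 (0.0889%) were found in as few clade C cells and in as many clade A and B cells. The cutoffs were the counts of hspa5 itself, set after its values were seen. The gene passed the filter through clades A and B, which held 11 of the 12 OR-expressing cells with 100 counts or more. This share is therefore a description and no test.

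The low level of hspa5 in clade C was seen in both spike-in sets. Among Fluidigm cells 0 of 3 clade C cells and 5 of 8 cells of clades A and B reached 10 CPM, and among ERCC cells 1 of 7 and 6 of 11. Clade A had 2 of 5 Fluidigm cells (median 1.48 CPM) and 4 of 4 ERCC cells (median 490 CPM). Clade B had 3 of 3 (median 1533 CPM) and 2 of 7 (median 0.214 CPM). The clade C medians were 1.08 and 0.625 CPM. Clade A in the Fluidigm set and clade B in the ERCC set thus had medians about as low. Clade C averaged 1.29 CPM in the Fluidigm set and 1.95 CPM in the ERCC set. For clade A these means were 864 and 912 CPM, and for clade B 1555 and 261 CPM. Both means of clade C were therefore below those of the other clades. With so few means this can arise by chance, and how many genes show it was not counted. Single cells also weighed on these means. Of the 5 Fluidigm cells of clade A, the highest had 4192 CPM and the next 124 CPM. The log2 fold change of clade C over clades A and B was -9.17 with a standard error of 2.65 (edgeR quasi-likelihood test, unadjusted p = 5.3e-04, adjusted p = 0.374), which ranked 8 among 5623 genes by p. It missed the threshold in edgeR and passed it in DESeq2 (adjusted p = 5.8e-05), where 935 genes or 16.6% did so. Over 12 alternatives the fold change stayed between -9.58 and -8.18 and the adjusted p ran from 5.8e-05 to 1. This contrast was chosen once its values had been seen. The stress genes named above had medians of 4891 CPM (clade C), 13207 CPM (clade A) and 1792 CPM (clade B), and their part in the result was not tested. The same 6 sums gave log2 fold changes of 4.28 for clade A over the others (standard error 1.64, adjusted p = 0.755) and 4.89 for clade B over the others (standard error 1.67, adjusted p = 0.676).

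The gene manf, which encodes a secreted ER factor that protects stressed cells, was likewise below the detection level in every clade C cell. Its highest levels there were 8.45 and 6.20 CPM, and 6 of the 10 cells had no read. Taken as independent draws, the 0 of 10 cells allow a share of up to 30%. In clade A 5 of 9 cells were detected, with 453, 354, 234, 71.8 and 19.1 CPM, and in clade B 4 of 10, with 98.7, 90.5, 28.4 and 12.5 CPM. In 4 of 5623 genes (0.0711%) the cells were divided at least as strongly. The cutoffs were the counts of manf itself, set after its values were seen, so this share is a description and no test. By set, clade C had 0 of 3 Fluidigm and 0 of 7 ERCC cells. Among the 9 detected cells, 6 were Fluidigm cells (of 8 in clades A and B) and 3 were ERCC cells (of 11). The log2 fold change of clade C over clades A and B, added after the values were seen, was -4.60 with a standard error of 4.67 (edgeR quasi-likelihood test, adjusted p = 0.866), no larger than its error. In OR-negative cells 3 of 13 had 135, 40.2 and 10.1 CPM, and 1 of 5 immature cells had 100.7 CPM.

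OR-negative cells included cells with and without hspa5. Their 6 cells above 10 CPM, of 13, had 4935, 1537, 666, 275, 267 and 13.2 CPM, and the other 7 had 0.709 CPM or less. The cell with 1537 CPM was Fluidigm cell 6, low in mature markers, and without it 5 of 12 were detected. The immature cells had 5391, 1304, 51.8, 18.1 and 1.77 CPM. Of the 5 immature cells 4 were thus above the detection level, against 12 of 29 OR-expressing cells.

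Among the factors that act after PERK, atf5a was found in nearly every neuron. It encodes one of the zebrafish ATF5 proteins and was above 10 CPM in 28 of 29 OR-expressing cells, 11 of 13 OR-negative cells and 2 of 5 immature cells. In clade C it spanned 27.9 to 3236 CPM (median 665 CPM), in clade A 0.933 to 2986 CPM (median 704 CPM), and in clade B 38.7 to 5608 CPM (median 1452 CPM). The ranges of the 3 clades overlapped. Only 23 of 7886 genes (0.292%) were detected in as many OR-expressing cells. The OR-expressing cell without it was Fluidigm cell 4, with 0.933 CPM, which was also low in mature markers and had the lowest predominant OR, or111-11 at 55.5 CPM. Fluidigm cell 6, also below 10 CPM of the summed mature markers, had 0.519 CPM. With both left out, atf5a was found in 28 of 28 OR-expressing and 11 of 12 OR-negative cells. OR-negative cells had 0.519 to 2750 CPM (median 210 CPM). Immature cells had 1642, 631, 9.71, 5.82 and 2.48 CPM. Below 10 CPM were thus 3 of 5 immature cells, against the 2 cells just named and ERCC cell 11, OR-negative with 7.63 CPM, among all others.

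The paralogue atf5b was almost absent from single cells. ERCC cell 1, immature, had 2639 CPM, and ERCC cell 20, OR-negative, had 95.2 CPM. In the 29 OR-expressing cells the highest was 0.396 CPM. ERCC cell 1 also had the highest ddit3 of all cells, 2969 CPM, and 1642 CPM of atf5a. The gene was too rare to enter the fit.

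The gene ddit3 encodes CHOP, a factor induced by ATF4 under lasting ER stress. It was detected in 21 of 47 cells and at very different levels. In OR-negative cells 4 of 13 were above 10 CPM, with 1408, 1118, 71.9 and 55.1 CPM, while the others had 2.16 CPM or less. In OR-expressing cells 14 of 29 were above it, at up to 2247 CPM. One of them was Fluidigm cell 4, with 1152 CPM, and without it 13 of 28 were detected. By clade the 14 cells were 6 of 10 in clade C (median of all cells 60.7 CPM), 4 of 9 in clade A (8.84 CPM) and 4 of 10 in clade B (2.39 CPM). The immature cells had 2969, 436, 42.6, 6.83 and 0.0575 CPM. The log2 fold change of clade C over clades A and B was 1.36 with a standard error of 2.26, so the higher median of clade C was within the error.

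The sensor gene atf6 and the transcription factor gene xbp1 were found in most cells of each class. Detection of atf6 reached 3 of 5 immature, 11 of 13 OR-negative, 8 of 10 clade C, 7 of 9 clade A and 6 of 10 clade B cells. Its medians were 430, 653, 197, 352 and 81.9 CPM in these classes. The highest single value was 3780 CPM in a clade C cell and the lowest 0.107 CPM in a clade B cell. For xbp1 the corresponding counts were 4 of 5, 9 of 13, 6 of 10, 6 of 9 and 7 of 10 cells, with medians of 209, 269, 56.9, 154 and 402 CPM. Its highest values were 8532 and 5078 CPM in clade B cells. Without Fluidigm cell 4, which had 791 CPM, xbp1 was found in 5 of 8 clade A cells. The counts do not tell the spliced form of xbp1, which IRE1 makes, from the unspliced one. For both genes the ranges of all classes overlapped.

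The gene creb3l1 encodes OASIS, a membrane-bound factor of the ATF6 type known from secretory cells such as osteoblasts. It was above 10 CPM in 4 of 47 cells, in OR-negative cells at 335 and 55.2 CPM, in an immature cell at 46.9 CPM and in a clade C cell at 18.9 CPM. No cell of clades A and B passed 0.280 CPM.

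A single cell had between 1 and 7 of the 9 genes above 10 CPM, with a median of 4. The medians were 4 in immature, 4 in OR-negative, 3.5 in clade C, 4 in clade A and 4 in clade B cells. The only cells with 7 genes were OR-negative, ERCC cell 22 and ERCC cell 14, and both held eif2ak3, atf5a, atf6, hspa5, xbp1, ddit3 and manf. Their eif2ak3, 634 and 228 CPM, was the highest among OR-negative cells. ERCC cell 22 had 12.7 CPM of gng8 plus gap43, below the cutoff of the immature class but the highest level outside it. ERCC cell 14 had 728 CPM of the summed microvillous markers. The summed mature markers of ERCC cell 22 and ERCC cell 14 were 6012 and 2551 CPM. Whether both were mature ciliated OSNs was not tested. Cells with 1 gene were Fluidigm cell 7 (immature, hspa5), Fluidigm cell 6 (OR-negative, hspa5), ERCC cell 28 (clade B, atf5a) and ERCC cell 33 (OR-negative, atf5a). Their total counts were 17396200, 28926256, 9361452 and 18164798.

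**Figure D2:**
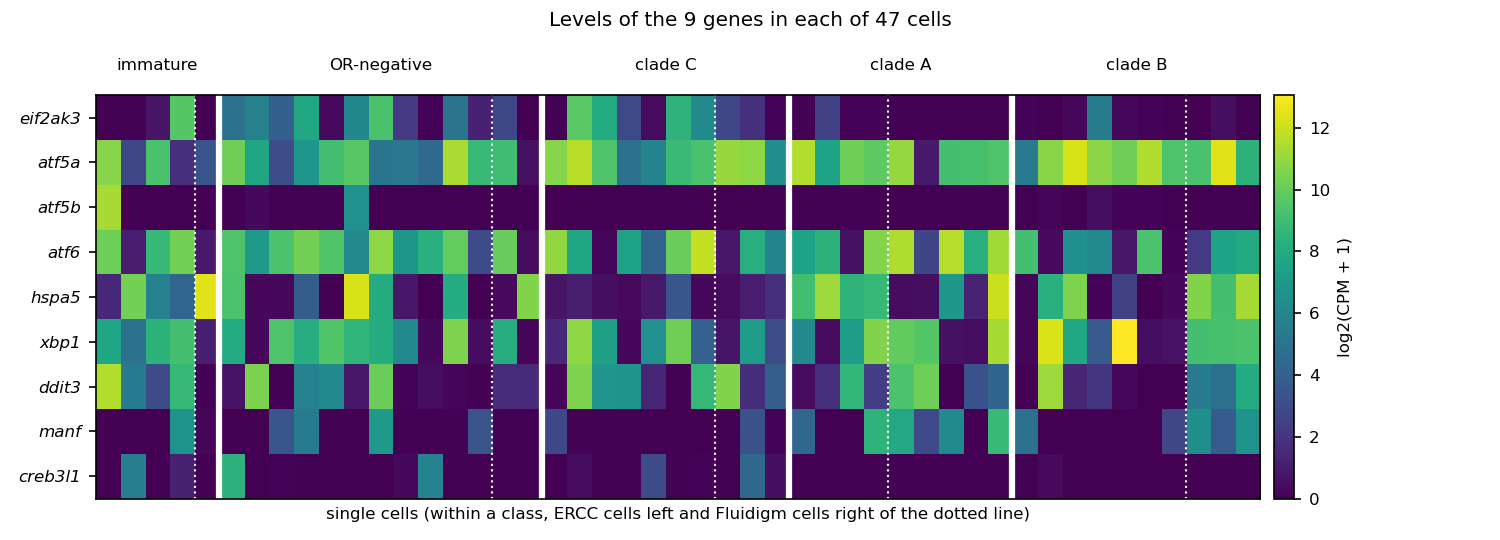
Level of the 9 genes (rows) in each of 47 cells (columns) as log2(CPM + 1), with classes separated by white lines and ERCC cells left of the dotted line within a class. No clade C cell exceeds 10.1 CPM in the row of hspa5, the row of atf5a is bright in 41 of 47 cells, and eif2ak3 is above 10 CPM in 13 ERCC cells.

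The 9 genes did not move as 1 block from cell to cell. Over 47 cells the highest Pearson r of log2(CPM + 1) among the 36 pairs was 0.36, for atf6 and manf, with 0.54 in Fluidigm and 0.32 in ERCC cells. It was followed by 0.26 for xbp1 and ddit3. The pair eif2ak3 and atf5a had -0.05 and the pair eif2ak3 and hspa5 -0.13. All points share library and depth, and these values are descriptions.

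Within the ERCC set, cells with eif2ak3 were compared with those without. Of 13 cells with it, 12 had atf6, 12 had xbp1, 7 had hspa5, 7 had ddit3 and 11 had atf5a. Of 20 cells without it, 14 had atf6, 12 had xbp1, 8 had hspa5, 6 had ddit3 and 19 had atf5a. The shares of atf6 and xbp1 were therefore 92.3% and 92.3% in cells with eif2ak3, against 70% and 60% in cells without. For atf5a and atf4a the order was the other way, with 84.6% and 53.8% against 95% and 75%. Other genes of PERK signalling were mixed. The share was higher with eif2ak3 for atf4b (84.6% against 75%), chac1 (69.2% against 55%) and ppp1r15a (53.8% against 50%). For trib3 it was lower (46.2% against 60%). Over all 7886 genes the median difference in share was 2.69 percentage points. The messages of the ATF4 genes, which PERK signalling favours in translation, were found in 7 (atf4a) and 11 (atf4b) of the 13 cells with eif2ak3, against 15 and 15 of the 20 without. These differences are descriptions over cells and carry no test. Of the 13 cells with eif2ak3, 7 were OR-negative and 4 of clade C, so class and eif2ak3 were not separated.

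The level of the predominant OR, the most abundant OR gene of a cell, ranged from 55.5 to 31584 CPM in the 29 OR-expressing cells. It was set beside each gene because the feedback studied in mouse starts from OR protein. For hspa5 Spearman's rho was 0.31 (Pearson r of log2 values 0.35), 0.20 for 11 Fluidigm cells and 0.47 for 18 ERCC cells, and 0.21 without the 2 cells farthest from the median OR level. The 12 cells with hspa5 had a median OR level of 10170 CPM, against 3190 CPM in the 17 cells without. The cells with hspa5 spanned 1036 to 31584 CPM and those without it 55.5 to 31243 CPM. No cell with an OR level under 1036 CPM had hspa5, while above it the groups overlapped. Clade C, in which hspa5 was low, had a median OR level of 2657 CPM, against 8353 CPM in clades A and B together, and the clade and the OR level were not separated.

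For the other genes rho over all 29 cells lay between -0.06 and 0.18, and within sets it varied more. In Fluidigm cells atf6 had 0.45 (Pearson r 0.65), creb3l1 0.36 and manf 0.33, against -0.06, -0.03 and -0.07 in ERCC cells. For atf5a it was 0.07, and levels above 1000 CPM occurred both beside or115-12 at 98.4 CPM and beside or119-1 (listed as zgc:152857) at 31584 CPM. For eif2ak3 it was -0.06, and the 5 cells with it had a median OR level of 2124 CPM, against 6158 CPM in the 24 without. The value of eif2ak3 in the 11 Fluidigm cells was -0.35, where no cell was above 10 CPM. For ddit3 it was -0.01, with -0.31 in Fluidigm and 0.25 in ERCC cells. With 18 or fewer cells in a set and many values near 0, none of these is read as a relation.

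**Figure D3:**
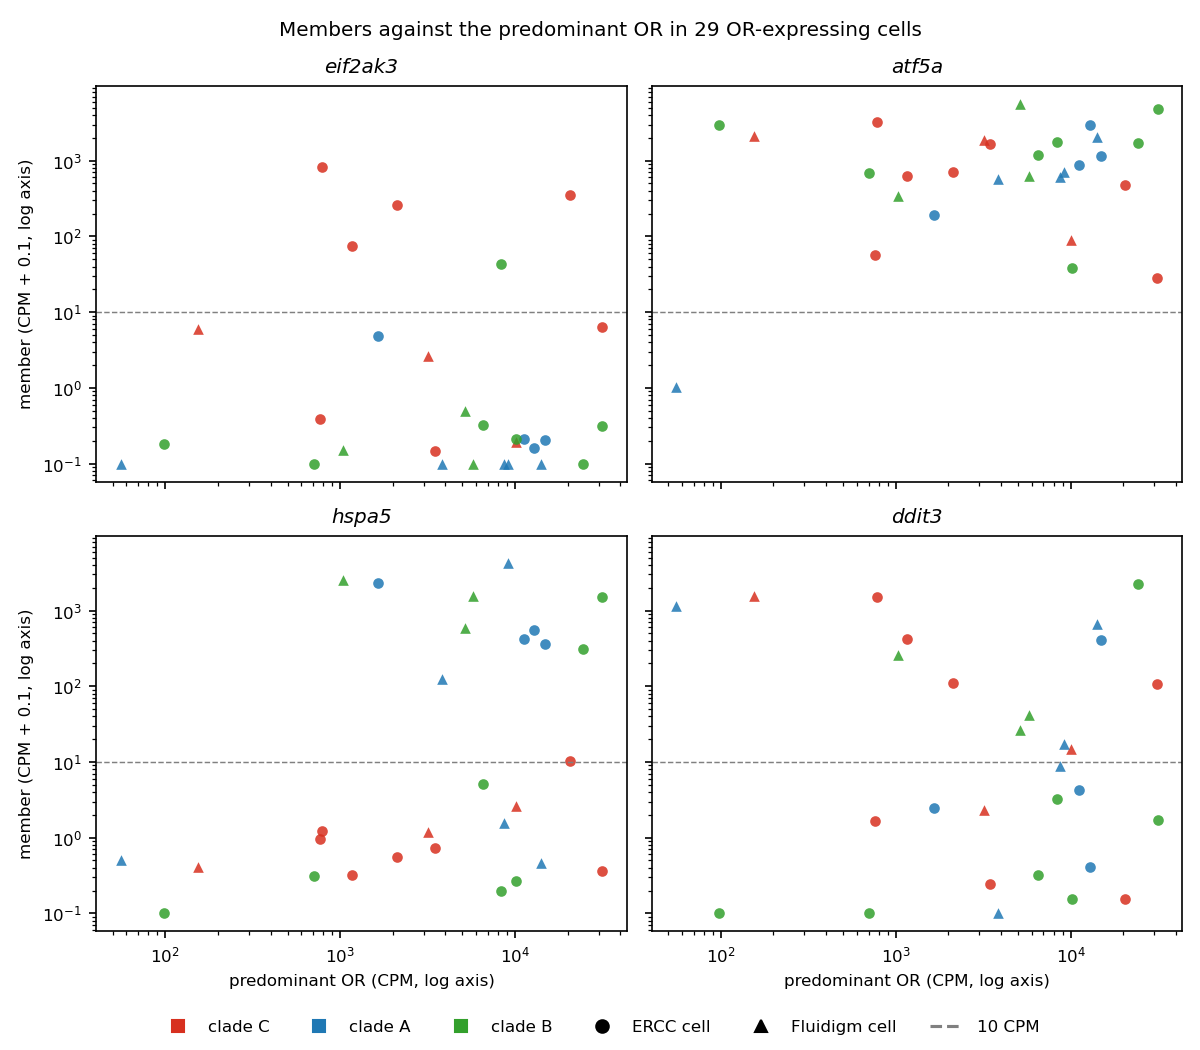
CPM plus 0.1 of eif2ak3, atf5a, hspa5 and ddit3 against the CPM of the predominant OR in 29 OR-expressing cells, both on log axes, coloured by clade with circles for ERCC and triangles for Fluidigm cells. In the hspa5 panel no clade C cell exceeds 10.1 CPM, next to the dashed line at 10 CPM, and in the atf5a panel 28 of 29 cells lie above it.

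Most OR-expressing cells had a single OR gene at 10 CPM or more, 22 of 29. With eif2ak3 these were 3 of 5 cells, without it 19 of 24. With hspa5 they were 9 of 12, without it 13 of 17. The widest gap was that of manf, with 5 of 9 cells against 17 of 20 without it, and the largest number of ORs was 4. No test was made.

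Immature and OR-negative cells were then compared with OR-expressing cells. The study holds that mature cells without an OR may not yet have begun OR expression, or could be OMP neurons that express none. OR-negative cells are thus a class here and not a stage. Of 8 genes tested none passed the threshold in either comparison. Neither did any of the 7886 genes (0% called in immature over OR-expressing and 0% in OR-negative over OR-expressing). Before adjustment 173 and 80 of the 7886 genes were below 0.05, in both cases less than a share of 0.05 of them. DESeq2 gave calls for 1273 (16.1%) and 532 of the 7886 genes. For immature over OR-expressing cells hspa5 had the largest ratio to its error, a log2 fold change of 3.52 with a standard error of 2.53 (edgeR quasi-likelihood test, adjusted p = 0.624). DESeq2 called it, with 8.63 (adjusted p = 0.0144), and without the single Fluidigm immature cell, which had 5391 CPM, edgeR gave -0.31. Over the alternatives the adjusted p ran from 0.0144 to 1. The other log2 fold changes of immature over OR-expressing cells were 1.32 ± 4.17 for eif2ak3, -2.24 ± 3.0 for atf5a, -1.05 ± 2.98 for atf6, -2.13 ± 3.35 for xbp1, 0.82 ± 3.37 for ddit3, -2.19 ± 4.37 for manf and 3.03 ± 4.42 for creb3l1 (± standard error).

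For OR-negative over OR-expressing cells the log2 fold changes were 0.38 ± 4.11 for eif2ak3, -1.65 ± 2.94 for atf5a, -0.17 ± 2.95 for atf6, 1.06 ± 2.32 for hspa5, -1.23 ± 3.26 for xbp1, -1.04 ± 3.38 for ddit3, -2.67 ± 4.46 for manf and 4.20 ± 4.67 for creb3l1 (± standard error, each adjusted p = 1 in edgeR). Each was smaller than its error. The Fluidigm sum of OR-negative cells held 2 cells and 43757917 counts. Of these counts 28926256 came from Fluidigm cell 6, which was low in mature markers, and no fit was made without that cell alone. The whole table moved with the scaling, with a median log2 fold change of all genes of -1.65 in immature and -0.55 in OR-negative over OR-expressing cells under TMM, against -0.10 and 0.56 under DESeq2-style size factors. The 8 genes tested of the 9 had medians of -0.11 and -0.61 under TMM. The signs of atf5a, atf6 and xbp1 in OR-negative cells turned with the scaling, and no direction is given for them. The mean level of eif2ak3 was 3.10 and 96.5 CPM in Fluidigm and ERCC cells that were OR-negative, against 0.815 and 87.8 CPM in OR-expressing cells, and within the ERCC set these means were close although the shares of cells differed.

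**Figure D4:**
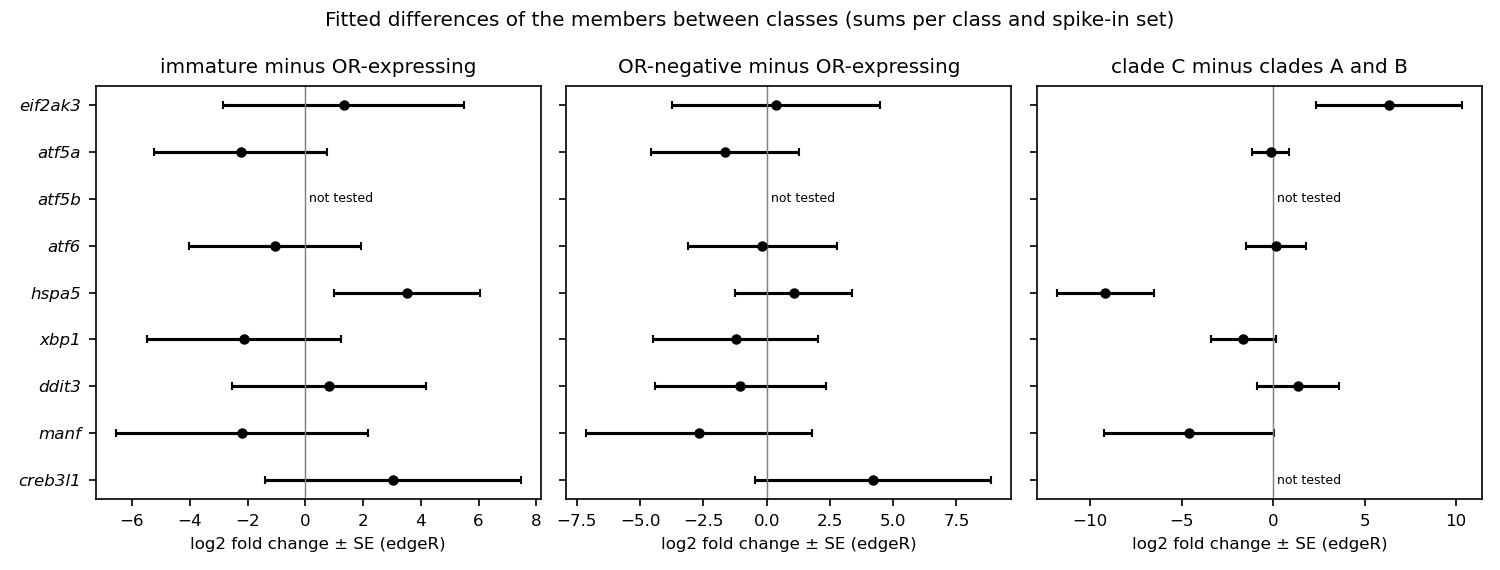
Log2 fold changes (points) with standard errors (bars) of the 9 genes in edgeR fits of counts summed per class and spike-in set, for immature and OR-negative over OR-expressing cells and for clade C over clades A and B, with genes below the filter marked as not tested. Only hspa5 in clade C, at -9.17, lies further than 3 standard errors from 0.

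Other genes of the pathway were taken from lists of names. Of 16 genes in the tables that belong to PERK signalling and the integrated stress response, 12 were tested and none passed the threshold in either direction in immature or OR-negative cells. Their median log2 fold changes were -2.30 and -0.02, against -1.65 and -0.55 for all genes. Found in most cells were atf4b (37 of 47 cells), atf4a (31 cells) and ppp1r15b (27 cells), which encodes a phosphatase subunit that reverses the action of PERK on eIF2alpha. In OR-negative over OR-expressing cells their log2 fold changes were 1.66 ± 2.68, 3.39 ± 2.95 and -0.04 ± 3.04. By detection the order was the other way in immature cells. The share of cells was higher in immature than in OR-expressing cells for 10 of the 12 genes and lower for 2. Over all 7886 genes it was higher for 4044 and lower for 3754. The median difference was 11.4 percentage points against 2.76 for all genes, and the immature shares rest on 5 cells. For atf4a the counts were 5 of 5 immature and 16 of 29 OR-expressing cells. No direction is given for this list. In clade C over clades A and B 2 of its 10 genes tested were positive and 8 negative (median -1.09, all genes 0.33), and in clade A over the others 8 were positive and 2 negative (median 1.67, all genes 0.33), from the same sums. None passed the threshold. The lowest p was that of atf3, a stress-induced transcription factor gene, in clade A, with 8.30 ± 2.61 (edgeR quasi-likelihood test, adjusted p = 0.755), named after its value was seen. It was detected in 4 of 5 Fluidigm and 1 of 4 ERCC cells of clade A, and in clades B and C in 0 of 3 and 1 of 7 each. The study names atf3 among genes high in clade A, a choice made on these same cells, so the direction is not independent evidence.

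Of 21 genes for ER chaperones and folding enzymes 15 were tested, with medians of -1.76 and -2.31 and none past the threshold. The most widespread were canx (34 cells), calr (32 cells) and p4hb (25 cells), which encode the lectin chaperones calnexin and calreticulin and a disulphide isomerase. Their log2 fold changes in OR-negative over OR-expressing cells were 0.46 ± 2.65, 0.66 ± 2.69 and -2.39 ± 4.20. In clade C over clades A and B the 14 chaperone genes tested had a median of 0.46, against 0.33 for all genes, with 7 positive and 7 negative, and canx had 1.64 ± 1.05, calr -2.13 ± 1.25 and p4hb -1.82 ± 2.91. Detection of canx reached 8 of 10 clade C cells, against 8 of 9 and 4 of 10 in clades A and B, and that of calr 7 of 10, against 5 of 9 and 7 of 10. In clade B over the others calr had 3.13 ± 1.09 (edgeR quasi-likelihood test, adjusted p = 0.676), also named after its value was seen. In none of these contrasts did a list member pass the threshold.

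Of 14 genes of ER-associated degradation, which returns misfolded proteins to the cytosol, 11 were tested, with medians of -3.37 and -0.73 and none past the threshold. Here derl1 (29 cells), edem3 (28 cells) and vcp (23 cells) were the most widespread. Of the sensor and protease genes of IRE1 and ATF6, 4 of 7 were tested and none passed. The IRE1 genes ern1 and ern2 were found in 5 and 4 cells, of which 4 and 2 were OR-expressing, and creb3l3l in 17 cells. The feedback genes known from mouse OSNs, kdm1a (LSD1, a histone demethylase) and adcy3b (an adenylyl cyclase of the odorant response), were found in 18 and 15 cells. Among immature cells adcy3b was found in 0 of 5, against 10 of 29 OR-expressing cells, and its log2 fold change was -9.35 ± 5.36 (edgeR quasi-likelihood test, adjusted p = 0.618).

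For each gene detected in at least 10 cells the 3 genes of most similar level were sought among 2574 genes, by Pearson r of log2(CPM + 1) over the 47 cells. For atf5a these were cntn4 (0.69), pvalb5 (0.68) and si:dkey-71b5.7 (0.65), with 0.86, 0.90 and 0.81 in Fluidigm and 0.58, 0.50 and 0.54 in ERCC cells. All were found in 36 to 45 cells. The best match of eif2ak3 was C5H3orf30 (0.54), followed by camk4 (0.49) and cep83 (0.49). In Fluidigm cells, none of which had eif2ak3 above 10 CPM, these were 0.50, -0.16 and 0.34, and in ERCC cells 0.51, 0.42 and 0.38. Those of atf6 were txn (0.55), si:dkey-276j7.1 (0.50) and nfe2l2a (0.49), those of hspa5 were cdk2ap2 (0.49), rps9 (0.47) and prps1a (0.44), and those of xbp1 were zhx2 (0.53), hnrpkl (0.46) and higd1a (0.44). For ddit3 they were psat1 (0.54), alas1 (0.46) and sept8a (0.46), and for manf cul3a (0.51), pdia3 (0.50) and psmb1 (0.49), the last with 0.10 in Fluidigm and 0.69 in ERCC cells. The gene pdia3, which encodes a disulphide isomerase of the ER, was the only one of these 21 that belonged to a pathway list above. The highest 1% of r began between 0.33 and 0.46 for these genes.

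In the 3 bulk libraries, with total counts of 2651985, 6250589 and 5320049, all 9 genes had reads in at least 2 libraries. The levels were 80.0 ± 42.9 CPM for eif2ak3, 118 ± 72.8 CPM for atf5a, 25.2 ± 8.43 CPM for atf5b, 212 ± 122 CPM for atf6, 791 ± 162 CPM for hspa5, 376 ± 166 CPM for xbp1, 415 ± 202 CPM for ddit3, 45.9 ± 5.32 CPM for manf and 8.31 ± 7.76 CPM for creb3l1 (SD, n = 3). In bulk, fewer cells with a transcript and less RNA per cell cannot be told apart. The bulk cells were sorted for a transgene of or111-7, an OR of clade A, so the 9 clade A cells are the nearest single cells. There eif2ak3 averaged 0.559 CPM with a maximum of 4.76 CPM, below each bulk library, and atf5b had at most 0.0529 CPM, against 18.6 CPM or more in bulk. The clade A means were 1017 CPM for atf5a and 885 CPM for hspa5. The 6 mature markers summed to 1636, 1101 and 1409 CPM in bulk, against a median of 6394 CPM in clade A cells. Epithelial markers summed to 2854, 5495 and 2467 CPM, against a median of 2779 CPM, but not from the same genes. In bulk krt4 had 1883, 3683 and 1253 CPM and krt5 had 198, 374 and 193 CPM. Of all 47 single cells, 5 had krt4 at 10 CPM or more, and krt5 reached at most 0.538 CPM. The globin genes hbbe1.1, hbbe3, hbae1 and hbae3 summed to 45.2, 9.44 and 8238 CPM, the last in bulk library 3. Without that library the bulk means were 71.6 CPM for eif2ak3 and 828 CPM for hspa5. The part of other cells in the bulk levels was not tested. Sorting and, by the methods of the study, amplification differed between bulk and single cells, and no test was made between them.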

How the data were processed

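The deposited files hold raw read counts per gene that the authors made from HiSeq reads, for single cells of C1 SMARTer and Nextera libraries. For the bulk libraries the labels name the same capture and kit, whereas the methods of the study describe pooled sorted cells amplified from an oligo-dT primer with a T7 promoter. The submitters' processing notes name CASAVA 1.8.2, STAR, HTSeq and GRCz10, whereas the methods of the study name VERSE for counting. No molecular identifiers were used, so reads are not independent molecules, and intervals and limits cover counting error only. Nothing states that cells of a set came from separate embryos, so p-values measure the spread between sums, which may be technical.

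CPM was computed over all 29033 genes. A gene was detected at 10 CPM or more. Of 143 OR genes the most abundant gave the clade by subfamily number (A 101 to 114, B 115 to 128, C 129 to 137). Counts were summed per class and spike-in set and tested with the edgeR quasi-likelihood test (edgeR 4.0.16, R 4.3.3, TMM, Benjamini-Hochberg adjustment, threshold 0.05), with genes of at least 100 counts in at least 3 cells kept. The standard error of a fold change is its absolute log2 value over the root of its F statistic. DESeq2 1.42.0 and limma 3.58.1 served as alternatives, with other filters, size factors, detection levels and omitted sums. The spike-in set, a label that sums share, pairs them. Deviations of sums of the same set correlated at 0.123 to 0.250 in the fit of all cells and at 0.088 to 0.122 among clades, and the set was used as a block in an alternative.

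In data simulated for immature over OR-expressing cells (7886 genes), the dispersion was that of the quasi-likelihood fit or 0.1. With the former, 0 of 200 genes changed 4-fold and 0 of 200 changed 64-fold were recovered, and with the latter 168 and 200. The common dispersion, a separate estimate, was 3.89. For clade A over clades B and C (5623 genes) the dispersion of the fit gave 0 and 11, and the common dispersion was 3.56.

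The 9 genes and the lists were chosen with earlier results of these data known. All 9 are named, with the 3 genes of each list detected in most cells and the 3 genes most alike to each of the 9. Clade contrasts of hspa5 and manf were added after their values were seen. So were the numbers of genes with a detection pattern at least as strong as that of hspa5, manf or atf5a, and as that of eif2ak3 in OR-negative cells. Promoter and protein sequences were not used here.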

Additional observations from a re-analysis of the deposited data

Results flagged for a closer look

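Within classes of 4 to 10 cells, 12 of 35 groups of values had 1 cell standing apart from the rest by the gap to its nearest neighbour relative to the range. Chance gives about 1 in 20 only for normally distributed values. Most values here lie at or near 0, so that a single cell with reads stands apart by construction, and the number of such groups is not set against chance. In immature cells these were eif2ak3 at 772 CPM and manf at 100.7 CPM in ERCC cell 31 (next cells 0.632 and 0.115 CPM), atf5b at 2639 CPM in ERCC cell 1 (next 0 CPM) and creb3l1 at 46.9 CPM in ERCC cell 3 (next 1.31 CPM). In clade C it was hspa5 at 10.1 CPM in ERCC cell 29 (next 2.50 CPM), which also held 357 CPM of eif2ak3.

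In clade A the cells were eif2ak3 at 4.76 CPM in ERCC cell 12 (next 0.108 CPM), atf5a at 0.933 CPM in Fluidigm cell 4, the lowest (next 192 CPM), atf5b at 0.0529 CPM in ERCC cell 21 and creb3l1 at 0.0523 CPM in Fluidigm cell 3 (next 0 CPM for both). In clade B they were eif2ak3 at 43.7 CPM (next 0.397 CPM) and atf5b at 0.396 CPM (next 0.140 CPM) in ERCC cell 13, and creb3l1 at 0.280 CPM in ERCC cell 9 (next 0.0553 CPM). Values under 1 CPM rest on few reads.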

How the results depend on the processing

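The numbers of genes called depended on the tool and filter. DESeq2 called 1273 genes for immature and 532 for OR-negative over OR-expressing cells, and 800, 982 and 935 for clades A, B and C over the others, against 0, 0, 1, 1 and 1 in edgeR. For clades A, B and C edgeR called 2, 3 and 5 genes with no filter and 4, 8 and 5 at 10 counts in 3 cells, limma called 0 in each, and RLE size factors gave 0 for clades A and B. Omitting single sums gave 0 to 1 genes for immature, OR-negative, clade A and clade C contrasts and 0 to 2 for clade B.

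With the spike-in set as replicate block, 0, 0, 1, 1 and 1 genes were called. For clades B and C this was the gene called without the block, and for clade A another one. None of the 9 genes was called in either fit. The block gave hspa5 -8.83 and eif2ak3 6.53 in clade C, and turned immature ddit3 (-4.49) and creb3l1 (-4.34) and OR-negative creb3l1 (-3.16).

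Of 228 fold changes of the 9 genes, 22 turned in sign, none of them called. For immature over OR-expressing cells RLE and DESeq2 gave 0.17 for atf6, and limma gave -3.32 for ddit3. Omitting sums gave -15.61 to 7.07 for eif2ak3, -0.31 to 5.93 for hspa5, -9.41 to 1.82 for ddit3 and -10.29 to 5.54 for creb3l1. For OR-negative over OR-expressing cells RLE and DESeq2 gave 1.14 for atf5a, 2.98 for atf6 and 1.36 for xbp1, and omitting sums gave -3.30 to 6.13 for eif2ak3, -0.54 to 0.32 for atf6, -0.41 to 2.26 for hspa5 and -4.48 to 6.72 for creb3l1. Beyond size factors and omitted sums, the cause was not tested. Of 270 detection shares 35 moved, mostly within 1 spike-in set, and of 35 correlations with OR level 7 moved. At the estimated dispersion even most simulated 64-fold changes were missed, so an uncalled gene is not shown to be unchanged.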
